A study of Mus musculus with 4 samples.

Results

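Haemoglobin genes were examined in single-cell RNA sequencing of embryonic mouse hearts. The 7 genes were the embryonic chains Hba-x, Hbb-bh1 and Hbb-y and the adult-type chains Hba-a1, Hba-a2, Hbb-bt and Hbb-bs, chosen by symbol, and all 7 had a row in the count matrices. Hearts were dissected at E10.5 from C57BL/6J embryos that were wild-type (Wt) or homozygous for the Cyp51 mutation I383V (Ho), a point mutation introduced with CRISPR/Cas9 into the sterol demethylase of cholesterol synthesis. Each genotype had 2 libraries (Wt1 and Wt2, Ho1 and Ho2), and values are given in that order. The sources used here do not give the number of hearts or litters behind a library. The suspensions were treated with red blood cell lysis buffer before capture, so the red cells counted here are those left after that step.

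The level of a globin is given in CPM, the UMIs (distinct captured molecules) of the gene per 1000000 UMIs of the barcodes concerned. Each molecule is counted once from its 3′ end, so levels of different globins can be set side by side without division by transcript length. The matrices held 33589 barcodes, with 109893733 and 117034633 UMIs in the Wt and 127018819 and 107377100 in the Ho libraries. A barcode was called globin-rich where the 7 genes made up 20% or more of its UMIs, before any other filter. There were 37 globin-rich barcodes, and this choice rests on the globin values themselves, so the levels inside it are a description. All other barcodes were summed per library as a whole and in 4 marker gates: Tnnt2, a cardiomyocyte troponin, at 10 or more UMIs per 10000, Cdh5, the endothelial cadherin, at 3 or more UMIs, Hapln1, a matrix link protein of the cardiac cushions, at 3 or more UMIs, and Crabp1, a retinoic acid binding protein of pharyngeal mesenchyme, at 5 or more UMIs. A barcode that met several limits entered none of the gates.

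Haemoglobin is built from alpha-type and beta-type chains, each holding a haem group that carries oxygen. In the mouse embryo the first red cells arise in the yolk sac, circulate with their nuclei through the beating heart at this stage and make mainly the embryonic chains zeta (Hba-x), epsilon-y (Hbb-y) and beta-h1 (Hbb-bh1), with some adult alpha chain. Later red cells from the fetal liver carry the adult chains, and within the yolk sac lineage Hbb-bh1 is known to be the earlier and Hbb-y the later beta-type chain.

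The alpha-type genes lie in order of their use on chromosome 11 of GRCm38, with Hba-x at 32276400 to 32278116, Hba-a1 at 32283511 to 32284465 and Hba-a2 at 32296489 to 32297298, all on the plus strand. The beta-type genes lie on the minus strand of chromosome 7, with Hbb-y at 103851749 to 103853216, Hbb-bh1 at 103841637 to 103843164, Hbb-bs at 103826534 to 103828096 and Hbb-bt at 103812524 to 103813996. These are GENCODE M21 positions on the build of the files. Of the windows of 50 bases in the Hba-a2 transcript, 86.9% occurred unchanged in that of Hba-a1, and 65.8% of those of Hbb-bs occurred in that of Hbb-bt. Reads from such stretches cannot be assigned to one copy by their sequence, so the split within each of these pairs is uncertain. Cell Ranger does not count such reads, so the levels of these genes, their sums and the ratios that use them may understate the adult-type chains by an amount that was not tested. No window of Hba-x, Hbb-y or Hbb-bh1 occurred in another member.

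Promoters are shown for 4 members because the results below turn on Hbb-y and Hba-x, with an adult-type alpha and an adult-type beta chain beside them. Each is the stretch of 250 bases before the RefSeq start site, from the RefSeq table of GRCm38.p6, written 5′ to 3′ on the gene's own strand. Promoters in this table were matched for 6 of the 7 members, all but Hbb-bh1. The RefSeq start site lay downstream of the GENCODE start given above, by 200 bases in Hba-x, 161 in Hba-a1, 168 in Hbb-bs and 9 in Hbb-y, so part of each window lies inside the GENCODE gene. Capitals mark GATAA (the GATA factor motif), CACCC (the motif of KLF1), CCAAT and TATAAA on either strand, and no matches of different motifs shared a base in the windows shown.
Hbb-y, chr7:103853208-103853457, minus strand: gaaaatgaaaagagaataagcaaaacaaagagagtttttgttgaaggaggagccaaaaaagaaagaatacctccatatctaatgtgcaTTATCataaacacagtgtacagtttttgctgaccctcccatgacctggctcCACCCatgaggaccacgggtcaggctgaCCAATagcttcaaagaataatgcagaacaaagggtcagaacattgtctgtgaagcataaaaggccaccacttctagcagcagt
Hba-x, chr11:32276350-32276599, plus strand: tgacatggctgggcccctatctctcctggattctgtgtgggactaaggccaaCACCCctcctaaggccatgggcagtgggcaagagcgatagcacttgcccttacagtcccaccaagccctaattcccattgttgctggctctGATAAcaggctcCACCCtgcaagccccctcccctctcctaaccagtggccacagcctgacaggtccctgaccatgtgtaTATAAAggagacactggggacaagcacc
Hba-a1, chr11:32283422-32283671, plus strand: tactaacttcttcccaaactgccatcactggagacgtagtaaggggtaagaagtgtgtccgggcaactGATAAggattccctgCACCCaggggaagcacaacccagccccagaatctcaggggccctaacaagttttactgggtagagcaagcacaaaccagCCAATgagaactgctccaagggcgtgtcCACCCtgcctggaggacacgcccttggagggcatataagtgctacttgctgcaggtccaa
Hbb-bs, chr7:103827929-103828178, minus strand: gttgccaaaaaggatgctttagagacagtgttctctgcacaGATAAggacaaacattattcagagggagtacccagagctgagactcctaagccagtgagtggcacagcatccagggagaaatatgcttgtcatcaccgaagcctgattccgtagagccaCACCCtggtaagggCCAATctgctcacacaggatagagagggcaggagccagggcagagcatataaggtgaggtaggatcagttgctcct

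GATAA was found in 6 of the 6 member windows and in 22.6% of the 32851 windows of the same length in the table, and CACCC in 6 of 6 and in 52%. CCAAT was found in 5 of 6 and in 33.8%, with Hba-x as the member without it, and TATAAA in 2 of 6 (Hba-x and Hbb-bt) and in 12.4%. Measured to the first base of the match as printed, GATAA began 162 bases before the RefSeq start site in Hbb-y, where it lay on the opposite strand, 107 in Hba-x, 182 in Hba-a1 and 209 in Hbb-bs. These matches are descriptions of the letters and were not tested as binding sites.

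Before the levels, 1 library stands apart. Ho1 held 32234 UMIs of Xist, the transcript of the inactive X chromosome, and 0 UMIs of 4 Y-linked genes, whereas Wt1, Wt2 and Ho2 held 5, 4 and 2 UMIs of Xist and 9968, 10873 and 10475 of the Y-linked genes. Ho1 thus differed from the others in sex. It also held 19 of the 37 globin-rich barcodes, and the edgeR comparisons of the genotypes are therefore also given without it. Between 14 and 34 barcode sequences were shared by a pair of libraries, at most 0.425% of either, and no globin-rich barcode of a library occurred in any other.

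Globin-rich barcodes were rare in every library. They numbered 3 of 10320 and 8 of 8212 barcodes in Wt, and 19 of 7999 and 7 of 7058 in Ho, or 0.0291% (95% Clopper-Pearson interval 0.006 to 0.0849), 0.0974% (0.0421 to 0.192), 0.238% (0.143 to 0.371) and 0.0992% (0.0399 to 0.204), where the intervals cover counting error only. Both Ho libraries were above both Wt libraries, but Wt2 and Ho2 lay next to each other with overlapping intervals. The mean was 0.0632% ± 0.0483 (SD, n = 2) in Wt and 0.168% ± 0.0978 (n = 2) in Ho, and the exact permutation test of 2 against 2 libraries gave p = 0.33 (two-sided), the smallest it can give. The difference of 0.105 percentage points fell to 0.0359 without Ho1.

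**Figure D1:**
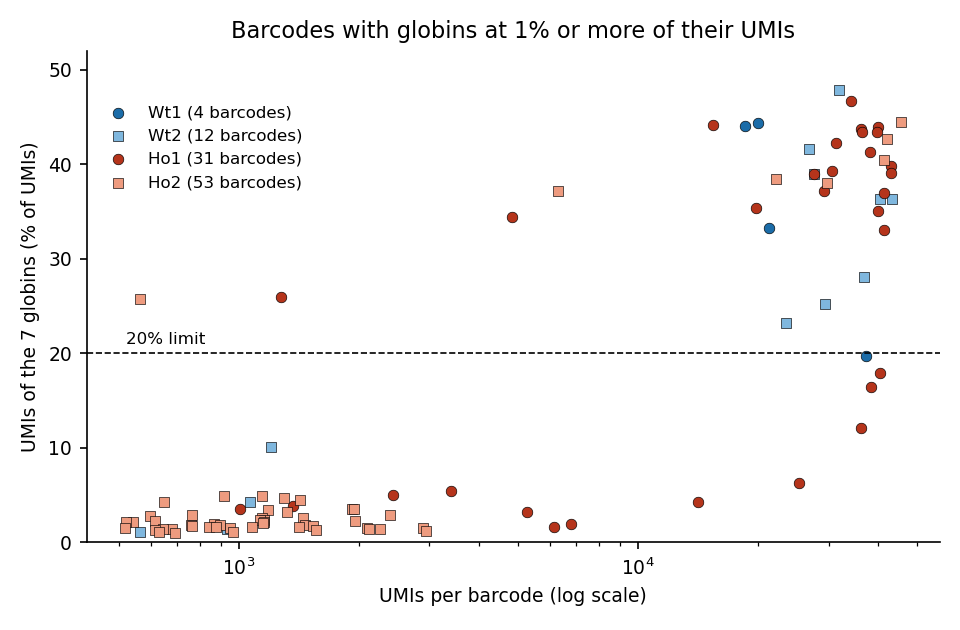
Each point is 1 of the 100 barcodes with globins at 1% or more of their UMIs, with its UMIs on a log axis and the share of the 7 globins on the other, by library. The 37 barcodes above the dashed 20% line lie between 23.2% and 47.9%, and the 53 points of Ho2 outnumber the 31 of Ho1, 12 of Wt2 and 4 of Wt1.

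No barcode reached 50%. The barcode just inside the limit had 23.2% (Wt2) and the one just outside had 19.7% (Wt1), followed by 17.9% and 16.4%. The median globin-rich barcode had 31278 UMIs, 3206 genes and 39.0% of its UMIs in globins. Between 2% and 20% lay 1 and 2 barcodes of the Wt libraries, and 10 and 22 of the Ho libraries. The 22 of Ho2 were shallow, 21 of them under 2000 UMIs, whereas the 10 of Ho1 had a median of 9688.5 UMIs. The Tnnt2 limit was also met by 5 of the 10 in Ho1, 12 of the 22 in Ho2 and 1 of the 2 in Wt2.

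Globins together took 0.0312% and 0.0813% of all UMIs in the Wt libraries and 0.208% and 0.0767% in the Ho libraries. The globin-rich barcodes held 70.5%, 95.3%, 90.0% and 93.7% of them. Of the globin UMIs outside them, a single barcode, the one at 19.7%, held 72.6% in Wt1, and the 10 barcodes between 2% and 20% held 78.3% in Ho1.

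Within the globin-rich barcodes the embryonic chains led. Hba-x, the embryonic alpha-type chain, had 164826, 144286, 152222 and 141606 CPM in Wt1, Wt2, Ho1 and Ho2, and Hbb-y, the main embryonic beta-type chain, had 137010, 119211, 141418 and 144783. They were the most abundant 2 genes of all. These levels differed little between libraries, with a mean of 150735 ± 10420 (SD, n = 4) for Hba-x and 135605 ± 11383 for Hbb-y, and Hba-x exceeded Hbb-y in 3 of the 4 libraries, so their order does not hold in each.

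The remaining members followed at lower levels. Hba-a1, an adult alpha chain, had 39728, 36622, 45047 and 35603 CPM and Hba-a2, its near-identical copy, 22888, 19282, 25325 and 21655. Hbb-bh1, the early embryonic beta-type chain, had 36854, 24925, 32533 and 63387. Hba-a1 and Hbb-bh1 overlapped in their ranges, and Ho2 was the only library in which Hbb-bh1 lay above Hba-a1.
The adult beta chains were far below the rest, at 1236, 3182, 3140 and 2724 CPM for Hbb-bt and 501, 1941, 1024 and 1759 for Hbb-bs. Both were lowest in Wt1, the library with 3 such barcodes. By summed UMIs Hbb-bt ranked 35 and Hbb-bs 95 among all genes of these barcodes, while the other 5 members took ranks 1 to 5, ahead of the ferritin chain Fth1.

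**Figure D2:**
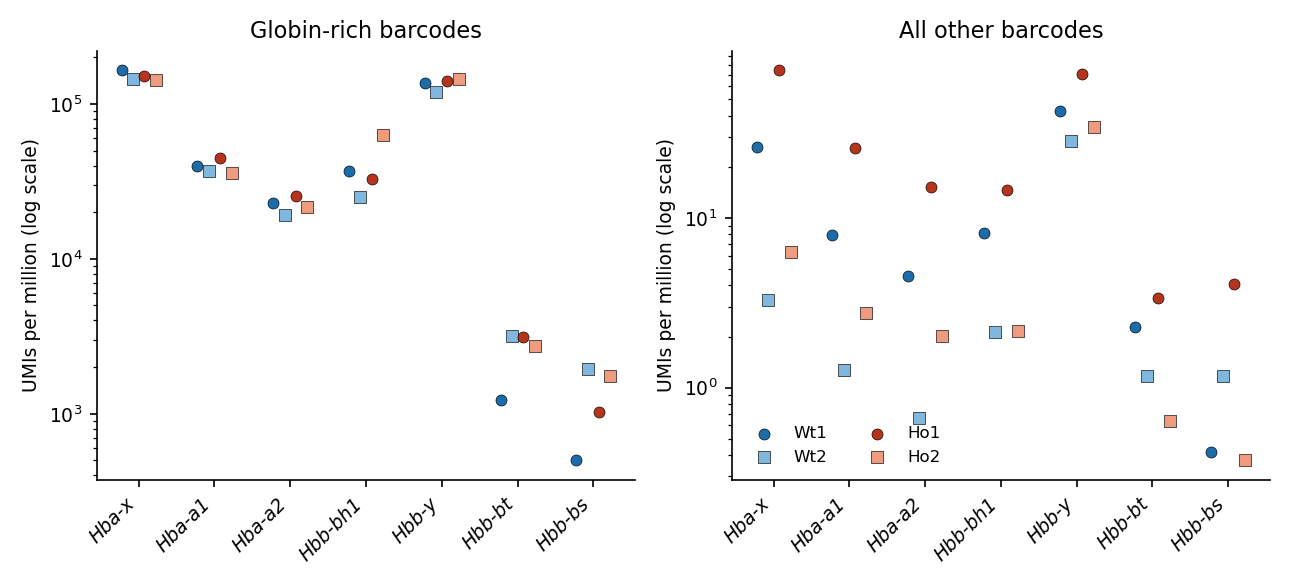
CPM of each globin on log axes, summed over the globin-rich barcodes of a library (left) and over all its other barcodes (right), 1 point for each of the 4 libraries. Inside the globin-rich barcodes the libraries lie close together for Hba-x and Hbb-y, and outside them Hba-x spreads from 3.28 in Wt2 to 74.2 in Ho1 while Hbb-y spreads from 28.3 to 70.8.

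The ratio of embryonic to adult-type chains in the globin-rich barcodes was 5.26 and 4.73 in Wt against 4.38 and 5.67 in Ho. The values of the genotypes interleaved. On the log2 scale the mean was 2.32 ± 0.11 (SD, n = 2) in Wt and 2.32 ± 0.26 (n = 2) in Ho, a difference of -0.0024 (exact permutation p = 1, two-sided). Leaving out single libraries moved the difference between -0.19 and 0.18.

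The alpha-type and beta-type pairs differed widely in how embryonic they were. The alpha-type ratio of Hba-x to the sum of Hba-a1 and Hba-a2 was 2.63, 2.58, 2.16 and 2.47, and the beta-type ratio of Hbb-y and Hbb-bh1 to Hbb-bt and Hbb-bs was 100.1, 28.1, 41.8 and 46.4. Adult chains made up 27.5%, 27.9%, 31.6% and 28.8% of the alpha-type UMIs and 0.989%, 3.43%, 2.34% and 2.11% of the beta-type UMIs. The ratio of all alpha-type to all beta-type UMIs was 1.30, 1.34, 1.25 and 0.935, lowest in Ho2. For the alpha-type ratio, the ratio of alpha-type to beta-type chains and the ratio of Hbb-y to Hba-x, the genotypes did not overlap, with Ho lower in the first 2 and higher in the last. The log2 differences were -0.17, -0.29 and 0.23, each with an exact permutation p = 0.33 (two-sided), the smallest that 2 against 2 libraries can give.

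Single globin-rich barcodes varied more than the sums. The embryonic share of globin UMIs ran from 62.4% to 87.7% over the 37 barcodes, with a median of 82.9%, and the lowest value came from a Ho1 barcode of 1272 UMIs. The ratio of Hbb-y to Hbb-bh1 had a median of 3.87 in Wt1, 5.26 in Wt2 and 5.27 in Ho1 but of 2.25 in Ho2. Over sums it was 3.72, 4.78, 4.35 and 2.28, so that Ho2 stood lowest on both readings. The exact permutation test of the genotypes was not run on the medians, and on the log2 ratios of the sums it gave p = 0.667 (difference -0.42, two-sided).

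The label of these barcodes as red cells was checked on genes that the choice did not use. Of the 37, 36 had a UMI of Alas2 (the erythroid first enzyme of haem synthesis), 36 of Slc4a1 (the band 3 anion exchanger), 33 of Klf1 and 27 of Gata1. Summed levels of the 11 cardiomyocyte markers were 167, 227, 245 and 165 CPM there, against 14089, 27113, 34020 and 27902 in all other barcodes, and 10 of the 11 macrophage markers had no UMI. The 11 endothelial markers summed to 0, 154, 74.2 and 5.33 CPM there, against 515, 772, 705 and 573 in all other barcodes. Of the 37, 2 met the Cdh5 limit and 1 the Tnnt2 limit.

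Genes of the red cell programme were described by lists. The share of all genes that were higher in all 4 libraries is not given here, so the counts below are a description. Of 18 genes of the red cell membrane and its skeleton, 16 were higher in the globin-rich than in the other barcodes in all 4 libraries, among them Rhd with 221 UMIs, Slc4a1 with 200 and Tspan33 with 155. Of 9 haem synthesis genes, 8 were higher in all 4, among them Alad (473 UMIs), Alas2 (450) and Urod (413). Alas1, the housekeeping form of the first enzyme, was the exception with 4.55 CPM against 19.5.

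Of 16 genes of iron uptake and haem handling, 8 were higher in all 4 libraries, among them Fth1 (12309 UMIs), Ftl1 (3311), Blvrb (1501) and the mitochondrial iron carrier Slc25a37 (455). Of 16 red cell enzymes and late genes, 10 were, led by Prdx2 (6092), Car2 (1074), Bpgm (489) and Rfesd (377). Of 11 erythroid transcription factors and the erythropoietin receptor, 6 were, led by Cited4 (318 UMIs), Klf1 (193), Epor (90) and Lmo2 (69).
None of 14 genes tied to globin switching was higher in all 4, and Bcl11a, Sox6, Myb and Nr2f2 had no UMI in the globin-rich barcodes, against 14.1, 12.5, 1.08 and 29.3 CPM elsewhere. A count of 0 among the 1100043 UMIs of these barcodes allows up to 2.73 CPM, counting error only, and the level of Myb elsewhere is under that limit. Among 6 other genes of the globin fold, the theta globin Hbq1b was higher in all 4 libraries with 20 UMIs, and myoglobin (Mb), Cygb and Ngb had none.

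By the ratio of levels inside to outside, with at least 100 UMIs inside, the leading 10 genes included 6 of the members (Hbb-bh1, Hba-x, Hba-a1, Hba-a2, Hbb-y and Hbb-bt) together with Alas2, Slc4a1 and Hemgn, a nuclear protein of blood cells. Among members the ratio ran from 833 for Hbb-bs to 5160 for Hbb-bh1. Alas2 reached 3486, Slc4a1 2988 and Hemgn 1707. Hbb-y, at 3052, ranked below Hba-x at 5157 although their levels inside were alike. The barcodes were chosen by their globins, so the ratios of members are a description, and they depend on the limit. Outside a 2% limit Hba-x had 1.49, 2.89, 7.96 and 4.09 CPM, against 26.1, 3.28, 74.2 and 6.32 outside the 20% limit. Hbb-y had 20.4, 27.6, 25.9 and 31.1 against 42.5, 28.3, 70.8 and 34.2.

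Outside the globin-rich barcodes the gates were used to ask whether the 7 globins kept the same proportions wherever they were counted. Hbb-y stood high in the Cdh5 and Hapln1 gates while Hba-x stayed low. Hbb-y had 76.5, 81.5, 34.8 and 53.8 CPM in the Cdh5 gate of Wt1, Wt2, Ho1 and Ho2 and 37.5, 51.1, 45.1 and 61.2 in the Hapln1 gate. In the Tnnt2 gate it had 1.55, 4.01, 44.5 and 11.4, and in the Crabp1 gate 1.73, 4.18, 6.98 and 3.07. Every library had less Hbb-y in the Crabp1 than in the Cdh5 and Hapln1 gates, and in Ho1 the Tnnt2 gate lay between the Cdh5 and the Hapln1 gate.

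Hba-x had 2.20, 1.25, 8.70 and 2.29 CPM in the Cdh5 gate and 1.55, 2.86, 8.99 and 3.41 in the Hapln1 gate. In the Crabp1 gate it had 1.42, 2.39, 9.31 and 3.32, the Ho1 value resting on 4 UMIs. In the Tnnt2 gate it had 1.32, 2.99, 71.7 and 7.12. Ho1 was the highest library in all 4 gates. With barcodes at 2% or more left out, Ho1 kept 3635 of its 3639 Tnnt2-gate barcodes and its Hba-x level there was 7.16.

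**Figure D3:**
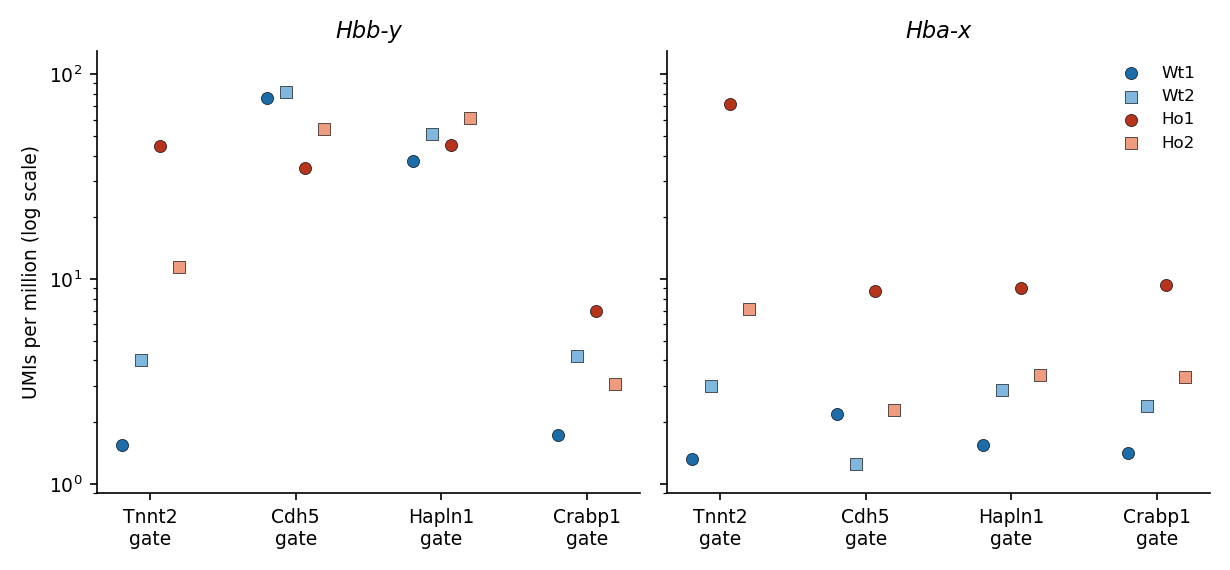
CPM (log axis) of Hbb-y and Hba-x in the 4 marker gates outside the globin-rich barcodes, 1 point for each of the 4 libraries. Hbb-y lies at 34.8 to 81.5 in the Cdh5 and Hapln1 gates and at 1.73 to 6.98 in the Crabp1 gate, while Hba-x lies under 10 in all gates apart from Ho1 in the Tnnt2 gate.

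The ratio of Hbb-y to Hba-x made the contrast within each library. It was 0.831, 0.826, 0.929 and 1.02 in the globin-rich barcodes of Wt1, Wt2, Ho1 and Ho2, 1.17, 1.34, 0.621 and 1.61 in the Tnnt2 gate and 1.23, 1.75, 0.75 and 0.923 in the Crabp1 gate. It was 24.3, 17.9, 5.01 and 17.9 in the Hapln1 gate and 34.8, 65.2, 4.00 and 23.5 in the Cdh5 gate, the last resting on 6, 5, 20 and 4 UMIs of Hba-x. The ratio was raised in all 4 libraries in both gates, and least in Ho1. On the log2 scale the Hapln1 gate exceeded the Tnnt2 gate by 3.65 ± 0.57 (SD, n = 4 libraries) and the Cdh5 gate exceeded it by 4.26 ± 1.27. These are 2 of the 4 pairs of gates compared, a test chosen after the levels were seen, each higher in 4 of 4 libraries, and the exact sign-flip permutation test gave p = 0.13 for each (adjusted p = 0.13, two-sided), the smallest that 4 libraries allow.

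**Figure D4:**
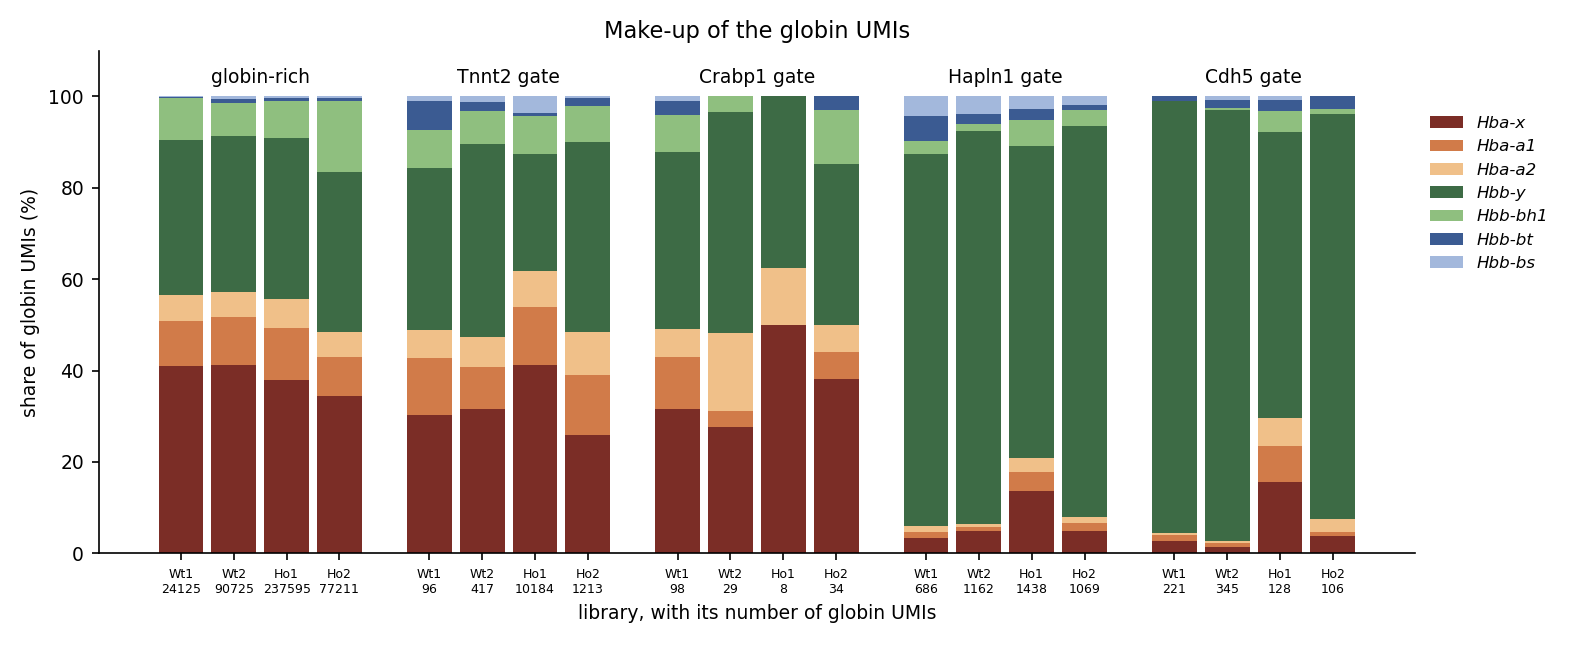
Share of each of the 7 globins among the globin UMIs of the globin-rich barcodes and of each gate, 1 bar for each library, with the number of globin UMIs under it. Hbb-y makes up 34% to 35.3% in the globin-rich bars and 62.5% to 94.6% in the Hapln1 and Cdh5 bars, and the Ho1 bar of the Crabp1 gate rests on 8 UMIs.

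A model across all genes, edgeR's quasi-likelihood test with the library as a block on 16 sums of 4 libraries and 4 gates, called 6 of the 7 members between the gates at an adjusted p under 0.05. This test called 79.9% of the 14488 genes, so that count is near the background and is no result about the globins. The pairwise contrasts differed in direction among members. Hbb-y differed by -2.32 (log2, SE 0.65, edgeR adjusted p = 0.00659) in the Tnnt2 against the Cdh5 gate, a contrast in which 58% of genes were called, and Hba-x was 2.27 higher (SE 0.64, adjusted p = 0.0066). Hbb-y was 4.48 higher (SE 0.92, adjusted p = 0.00124) in the Cdh5 than in the Crabp1 gate, where 40.7% of genes were called. Hba-x differed there by -0.82 (SE 0.89, adjusted p = 0.506). Hbb-y differed by -1.84 between the Tnnt2 and the Hapln1 gate (SE 0.59, adjusted p = 0.0125, with 66.1% of genes called), and the 2.16 by which it was higher in the Tnnt2 than in the Crabp1 gate was not called (SE 0.99, adjusted p = 0.0747, with 58.6%). It was 3.99 higher in the Hapln1 than in the Crabp1 gate (SE 0.89, adjusted p = 0.0026, with 35.1% of genes called). The 0.49 by which it was higher in the Cdh5 than in the Hapln1 gate was not called (SE 0.59, adjusted p = 0.605, with 24.2%).

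Leaving out every barcode with globins at 2% or more changed the calls. Of the gates, this took barcodes only from the Tnnt2 gate (2937 to 2936 in Wt2, 3639 to 3635 in Ho1 and 2639 to 2627 in Ho2). The removal rests on globin values and lowers the globins of that gate by construction, so the changes are a description. Hba-x, Hba-a1 and Hba-a2 were then not called between the gates (edgeR adjusted p = 0.488, 0.109 and 0.484), and Hbb-y was called more clearly (adjusted p = 1.1e-07), with 79.9% of all genes called again. Hbb-y was then 3.52 above the Tnnt2 gate in the Cdh5 gate and 3.06 above it in the Hapln1 gate on the log2 scale, whereas Hba-x was -0.34 and -0.12 from it. The adult beta chains went with Hbb-y, Hbb-bt by 2.04 and 2.25 and Hbb-bs by 1.17 and 3.47 (adjusted p = 1.39e-05 and 1.14e-06), on totals of 230 and 524 UMIs over the 16 sums before this removal. Hbb-bh1 was called (adjusted p = 0.0144) with -0.78 and 0.51.

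Shares of barcodes with a UMI were also higher in the Cdh5 than in the Tnnt2 gate, in Ho1 too, where the level of Hbb-y was not. Hbb-y was found in 15.1%, 17.1%, 18.4% and 19.7% of Cdh5-gate barcodes and in 1.62%, 3.68%, 10.3% and 6.06% of barcodes in the Tnnt2 gate, whose cell type should lack globin, at median depths of 11833 to 13344 and 10699 to 17323 UMIs. With each barcode thinned to 2000 UMIs the shares were 5.56%, 7.53%, 4.35% and 6.61% in the Cdh5 gate, leaving out 0 to 2 shallower barcodes a library, and 0.136%, 0.481%, 1.62% and 1.15% in the Tnnt2 gate, leaving out 374 to 648. The 4 libraries did not overlap between these gates. Hba-x, thinned in the same way, was found in 0.136% to 1.42% of the Tnnt2 gate and in 0.471% to 2.29% of the Hapln1 gate. In the Cdh5 gate it was found in 0.926%, 0.621% and 0.826% of Wt1, Ho1 and Ho2, and in 0 of 292 barcodes of Wt2, where 5 barcodes (1.71%) had a UMI before thinning.

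The summed level of all 7 globins ordered the gates less clearly. Relative to the mean of the other 3 gates on the log2 scale it was lower in the Crabp1 gate in 4 of 4 libraries (-2.32 ± 0.22, SD) and higher in the Hapln1 gate in 4 of 4 (1.35 ± 0.77). It was higher in the Cdh5 gate in 3 of 4 (1.64 ± 1.38), Ho1 being the exception. The Tnnt2 gate was higher in 1 of 4 (-0.66 ± 2.07), with a mean of -1.58 without Ho1, -0.034 without Wt1 and -0.25 without Wt2. The exact sign-flip permutation p-values were 0.13, 0.13, 0.25 and 0.5 (adjusted 0.25, 0.25, 0.33 and 0.5, two-sided), where 4 libraries cannot give less than 0.13.

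The Hbb-y signal was then followed to single barcodes, by a definition chosen after the gate levels were seen: at least 5 UMIs of Hbb-y and at most 1 UMI of Hba-x, Hba-a1, Hba-a2 and Hbb-bh1 together. There were 383 such barcodes, 82 (0.795%) and 122 (1.49%) in the Wt and 97 (1.21%) and 82 (1.16%) in the Ho libraries. They held 7736 UMIs of Hbb-y with 9 of Hba-x and 25 of Hbb-bh1, and 1 barcode reached 259 UMIs of Hbb-y. The definition itself keeps Hba-x and Hbb-bh1 low. Hbb-bt and Hbb-bs, which it leaves free, together had 16, 46, 56 and 11 UMIs by library. The share was lowest in Wt1 (95% Clopper-Pearson interval 0.632 to 0.985) and highest in Wt2 (1.24 to 1.77), with both Ho libraries between them. The mean share was 1.14% ± 0.489 (SD, n = 2) in Wt and 1.19% ± 0.036 (n = 2) in Ho (exact permutation p = 1, two-sided). The reverse was counted by a looser rule, at least 5 UMIs of Hba-x and at most 1 UMI of Hbb-y. It left the other globins free and was met by 3 barcodes, all of Wt2.

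These barcodes carried markers of the endothelium. By library, 51, 76, 57 and 56 of the 82, 122, 97 and 82 barcodes met the Cdh5 limit and 64, 97, 89 and 74 the Hapln1 limit. Of the 383, 361 met at least 1 of these limits, or 90.2%, 95.1%, 95.9% and 95.1% by library, against 19.8%, 33.3%, 40.5% and 25.4% of all barcodes outside the globin-rich. The gate levels had led to the definition, so these shares are a description. All 11 endothelial markers were higher in them than in the rest in all 4 libraries, with Cdh5 at 227 against 66.7 CPM, Egfl7 at 521 against 185, Tie1 at 107 against 28 and Cldn5 at 28.4 against 4.77. All 11 cardiomyocyte markers were lower in all 4, by a median ratio of 0.137. The share of all genes higher or lower in this way is not given here, so these counts too are a description.

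Of the cushion and mesenchymal markers, Hapln1 was higher in all 4 libraries (464 against 206 CPM) and 5 of the 10 were lower in all 4, among them the collagen Col1a1 (2.10 against 27.6). Of the red cell membrane genes 4 of 18 were higher in all 4 libraries and 9 in none (median ratio 0.492). Levels of 0 on both sides counted as not higher. Of the erythroid transcription factors and the erythropoietin receptor 5 of 11 were higher in all 4 and 3 in none (median ratio 1.43). Alas2 had 1 UMI over the 383 barcodes, and Gata1, Gfi1b and Slc4a1 had none, but their levels in the rest were also low, at 0.117, 0.304, 0.192 and 0.0617 CPM. The median depth was 14245, 14780.5, 14547 and 16339.5 UMIs against 10258, 13764, 15431 and 15082 in the rest, so in Ho1 they were the shallower. Some genes shared by blood and vessel cells were higher in all 4 libraries, such as Lmo2 (88.1 against 26) and Tal1 (19.2 against 7.53), the partners of a haematopoietic factor complex. The genes named for these barcodes were chosen after their values were seen.

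**Figure D5:**
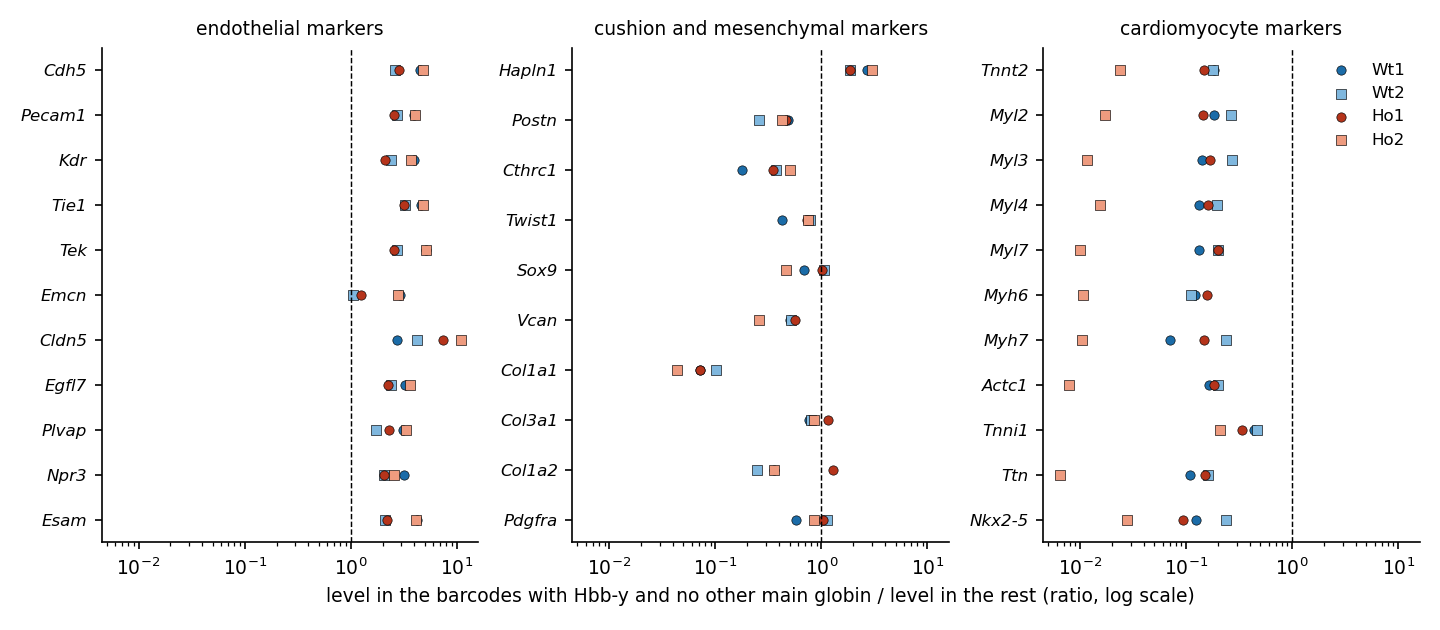
Ratio (log axis) of the level in the 383 barcodes with Hbb-y and at most 1 UMI of the 4 other main globins to the level in all other barcodes outside the globin-rich, for the genes of 3 marker lists, 1 point for each of the 4 libraries and a dashed line at equal levels. All points of the endothelial markers lie right of the line and all points of the cardiomyocyte markers left of it.

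Across the 16 sums of library and gate, the genes outside the 7 members whose level was most like that of the summed globins were Fam122b, Heg1, Cd9, Cgnl1, 1110032F04Rik, Epha2, Klf2, Gas6, Afap1l1 and Tsc22d4, with Pearson's r from 0.796 to 0.754 over 13145 genes. The sums share libraries and gates and are not independent, and the r is a description. For Hbb-y alone, a target chosen after the gate levels were seen, the most alike were Heg1 at 0.899, Cd9 at 0.894 and Cgnl1 at 0.883, and Klf2, Ptprb and Cd93 were also among the first 10. Hbb-y had an r of 0.199 with Hba-x, whereas Hba-x had 0.940 with Hba-a2, 0.836 with Hba-a1 and 0.807 with Hbb-bh1.

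The genotypes were compared in the sums outside the globin-rich barcodes, where a change in the number of cells holding globin RNA and in its amount per cell cannot be told apart. The 7 globins together had 92 and 38.0 CPM in Wt and 208 and 48.4 in Ho. The groups overlapped, with Ho1 highest, Wt1 next and Ho2 near Wt2. The log2 difference of 0.76 between Ho and Wt (exact permutation p = 0.667, two-sided) became -0.29 without Ho1. With single libraries left out, its highest value was 1.82. Wt1 owed its place to the barcode at 19.7%. At a 10% limit the sums were 25.2 and 37.0 CPM in Wt and 66.9 and 48.4 in Ho, and at 2% they were 25.2 and 36.6 against 45.2 and 40.7. Both Ho libraries, Ho2 included, then lay above both Wt libraries, with log2 differences of 0.90 and 0.50 (exact permutation p = 0.33 for each, two-sided). The embryonic to adult-type ratio outside was 5.05, 7.90, 3.29 and 7.38, and its log2 difference of -0.36 had an exact permutation p = 0.667 (two-sided) and was 0.23 without Ho1 and -0.94 without Ho2, -0.68 without Wt1 and -0.034 without Wt2. The groups overlapped for all 6 ratios tested there.

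edgeR called none of the 7 members between Ho and Wt in these sums, and 0% of 17175 genes in all, with 775 genes at an unadjusted p under 0.05 and none of the members among them. DESeq2 called 23 genes and again no member. The members' log2 fold changes were all positive, from 0.29 for Hbb-bt to 1.80 for Hba-a2 with a median of 1.53 against 0.0044 over all genes, and standard errors between 0.42 and 1.39. Every one of them turned negative without Ho1, where edgeR called none of 17691 genes, with 435 at an unadjusted p under 0.05. No member had both Ho libraries above both Wt libraries, a pattern that 20.6% of genes showed. This turned with the limit. At 10%, Hba-x, Hba-a1, Hba-a2, Hbb-bh1 and Hbb-y showed it, against 20.7% of genes, and Hba-x had 1.49 and 2.89 CPM in Wt and 18.1 and 6.32 in Ho. At 2%, Hba-x, Hba-a1 and Hba-a2 showed it, against 20.8%, and Hbb-y did after TMM scaling but not in CPM. edgeR called no member at either limit, and 0% of the 17174 genes at 10% and of the 17173 at 2%.

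In the Tnnt2 gate the levels of Ho were the higher in each pairing with Wt for the 6 members that passed the filter on low counts, against 18.6% of genes. The filter admits a member through the group where it is high, so this count is a description. Hba-x had 1.32 and 2.99 CPM in Wt and 71.7 and 7.12 in Ho. A single Ho1 barcode, at 17.9% globin, held 68.3% of the Hba-x, 74.1% of the Hbb-y and 95.8% of the Hbb-bs UMIs of this gate in Ho1. edgeR gave log2 fold changes from 1.90 for Hbb-bt to 4.15 for Hba-a1, none called (adjusted p from 0.469 to 0.654), and called 0% of 14769 genes, with 918 at an unadjusted p under 0.05. DESeq2 called 20 genes and no member. Without Ho2, which leaves Ho1 as the only mutant library and assumes that it varies like the Wt libraries, edgeR called 6 members among 23 genes (0.152%). Without Ho1 it called no member and none of 15173 genes, with 1187 at an unadjusted p under 0.05.
At a 10% limit edgeR called Hbb-y alone (2.30, adjusted p = 0.0345), the only gene of all tested (0.00677%). At the 2% limit, Hba-x had 1.32 and 1.95 CPM in Wt and 7.16 and 4.60 in Ho, and Hbb-y had 1.55 and 2.88 against 6.80 and 7.80. The log2 fold change was then 1.81 for Hba-x (SE 0.29), 2.05 for Hba-a1 (SE 0.27), 2.30 for Hba-a2 (SE 0.33), 1.79 for Hbb-bh1 (SE 0.31) and 1.64 for Hbb-y (SE 0.23), and edgeR called none (adjusted p from 0.131 to 0.311 for these 5) and 0% of the genes.

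In the Hapln1 gate both Ho libraries were above both Wt libraries for Hba-x, Hba-a1, Hba-a2 and Hbb-bh1, against 16.8% of genes, and below them for Hbb-bs, against 17.6%. Cardiomyocyte markers of this gate summed to 1103 and 1374 CPM in Wt and 2638 and 1466 in Ho. The part of this difference in the globin levels was not tested. The log2 fold change of Hbb-bs was -0.41 (edgeR adjusted p = 0.945) and turned to 0.27 (adjusted p = 0.926) with every barcode over the Hapln1 limit taken in. Among those taken in was a Ho1 barcode at 12.1% globin with 41 UMIs of Hbb-bs, beside 38 in the gate of Ho1 before. The log2 fold changes of Hba-x, Hba-a1, Hba-a2 and Hbb-bh1 were 1.52, 1.87, 1.66 and 1.59, and edgeR called none (adjusted p from 0.598 to 0.850) and 0% of 13430 genes, with 695 at an unadjusted p under 0.05. DESeq2 called 10 genes and no member. Without Ho2 edgeR called 4 members among 270 genes (1.92%) and without Ho1 it called 1 among 212 (1.56%), with the lone mutant library assumed to vary like the others.

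In the Cdh5 gate only Hbb-y passed the filter on low counts, and both Ho libraries were below both Wt libraries, against 14.2% of genes. Its log2 fold change was -0.80 (SE 0.21, edgeR adjusted p = 1), and edgeR called 0% of 10095 genes, with 267 at an unadjusted p under 0.05, while DESeq2 called none. This gate held 218, 292, 163 and 122 barcodes, and in Ho1 its cardiomyocyte markers summed to 5807 CPM against 1112, 843 and 1271 in Wt1, Wt2 and Ho2, with 2388 of endothelial markers against 3188, 3306 and 3683. The part of this difference in make-up in the Hbb-y level was not tested. The direction depended on the gate. The barcodes that met both the Cdh5 and the Hapln1 limit, 639, 1055, 1309 and 693 of them, had 88.1 and 60.5 CPM of Hbb-y in Wt and 131 and 119 in Ho. A single Ho1 barcode, at 16.4% globin, held 2167 of the 3487 Hbb-y UMIs of Ho1 there, and the direction without it was not tested. With every barcode over the Cdh5 limit taken in, that Ho1 barcode included, Hbb-y had 83.5 and 63.8 CPM in Wt and 113 and 106 in Ho. The log2 fold change was 0.62 (SE 0.14, edgeR adjusted p = 0.624, none of 13620 genes called). Without Ho2 edgeR called 2 members among 721 genes (6.72%), and without Ho1 it called no member among 125 genes of 10665.

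In the Crabp1 gate Hba-x and Hbb-y passed the filter, and Hba-x was higher in both Ho libraries, against 14.1% of genes. The log2 fold changes were 1.38 (SE 0.75) and 0.54 (SE 0.75), and edgeR called neither (adjusted p = 0.999 for both) and 0% of 10824 genes, with 190 at an unadjusted p under 0.05. DESeq2 called 1 gene and no member, and edgeR without Ho1 called none of 11444 genes, with 146 at an unadjusted p under 0.05. The gate held only 26 barcodes and 8 globin UMIs in Ho1. Its cardiomyocyte markers summed to 449 and 861 CPM in Wt and 2667 and 1226 in Ho. Its Crabp1 pharyngeal mesenchyme markers summed to 2259 and 1441 CPM in Wt and 1187 and 1443 in Ho. The part of these differences in the Hba-x level was not tested.

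The test of whether the genotype difference itself varied between gates called no member and 0% of 14938 genes in edgeR, with 304 at an unadjusted p under 0.05, and DESeq2 was not run on it. The smallest unadjusted p among members was that of Hbb-y (0.00118, adjusted p = 1). Without Ho1 it called no member and none of 15460 genes, with 246 at an unadjusted p under 0.05.

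The lists of the red cell programme were tested between the genotypes in the same sums. In none of them did edgeR call a gene in either direction, among 13 tested of 18 membrane genes, 9 of 9 haem synthesis genes, 16 of 16 iron and haem handling genes, 14 of 16 enzymes and late genes, 11 of 11 transcription factors and 14 of 14 switching factors. Their median log2 fold changes were 0.21, 0.013, 0.011, 0.06, 0.16 and -0.037, with 1, 0, 1, 0, 0 and 2 genes at an unadjusted p under 0.05. Of the marker lists, the endothelial (0.04), cushion and mesenchymal (-0.24), macrophage (-0.27) and epicardial (0.33) markers had 0, 1, 0 and 0 genes at an unadjusted p under 0.05. The medians farthest from 0 were those of the 6 megakaryocyte and platelet markers (0.75), the 11 cardiomyocyte markers (0.69), the 6 epithelial markers (-0.61) and the 10 Crabp1 pharyngeal mesenchyme markers (-1.13), with 0, 1, 0 and 2 genes at an unadjusted p under 0.05 and none called.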

How the data were processed

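Single-cell suspensions of E10.5 hearts were sequenced with 10x 3′ chemistry. The deposited matrices hold UMI counts per gene and barcode, made by the authors with Cell Ranger 6.1.1 on the mm10 build (GRCm38), and the deposited feature and barcode names were used as they stand. Seurat 4.1.0 is also named in the submitters' processing notes. Reads that match several genes are not counted by Cell Ranger, which bears on the near-identical alpha and beta copies. The members, gene lists and gates were chosen with earlier results of these data known. No barcode filter or doublet caller was applied.

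UMIs were summed per library and gate (Python 3.11.15, pandas 2.3.3). Sums were tested with edgeR 4.0.16 (glmQLFit and glmQLFTest, TMM, filterByExpr, Benjamini-Hochberg over all genes at 0.05) in R 4.3.3, with DESeq2 1.42.0 as an alternative, and the fits were tested on simulated data. An SE is the fold change divided by the root of F. Single values per library were compared by exact permutation tests. The sources used here do not say how many embryos a library holds, so p-values measure only the spread between these libraries. Named genes were all members, up to 4 genes of a list with the most UMIs in the globin-rich barcodes, the 10 leading genes by ratio and the 10 most like the summed globins over 16 sums on log2(CPM + 1). Some genes that this rule names are not reported here. Alternatives were other limits for globin-rich barcodes and gates, the barcode limits of the study, no filter on low counts, a replicate block and leaving out each library.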

Additional observations from a re-analysis of the deposited data

Results flagged for a closer look

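Hbb-y differed between the genotypes in opposite directions in the Tnnt2 and the Cdh5 gate, with both Ho libraries on the same side of both Wt libraries in each, and was called in neither. Ho minus Wt it was 25.2 CPM in the Tnnt2 gate and -34.7 in the Cdh5 gate. With barcodes at 2% or more left out, Hbb-y in the Tnnt2 gate had 1.55 and 2.88 CPM in Wt and 6.80 and 7.80 in Ho. Of the gates, only that of Tnnt2 lost barcodes by this removal. The edgeR test of a genotype effect that differs between gates gave an unadjusted p of 0.00118 and an adjusted p of 1 for Hbb-y, and 2.62e-05 and 0.392 with barcodes at 2% or more left out. With every barcode over the Cdh5 limit taken in, the direction there turned, to 83.5 and 63.8 CPM in Wt and 113 and 106 in Ho. Among those taken in was a Ho1 barcode at 16.4% globin with 2167 UMIs of Hbb-y, and the direction without it was not tested. Hbb-bs was 3.2 CPM higher in Ho in the Tnnt2 gate and -0.558 in the Hapln1 gate, with an adjusted p of 1 in the same edgeR test, and its log2 fold change in the Hapln1 gate turned from -0.41 to 0.27 with every barcode over that limit taken in. The Hapln1 gate then took in a Ho1 barcode at 12.1% globin with 41 UMIs of Hbb-bs. A single Ho1 barcode held 361 of the 377 Hbb-bs UMIs of the Tnnt2 gate in Ho1, and Wt2 and Ho2 had 5 each. In the Tnnt2 gate Hbb-y had 1.55 and 4.01 CPM in Wt and 44.5 and 11.4 in Ho.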

How the results depend on the processing

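Of the alternatives run for the main results, 186 stayed within the spread or within 1.5 times the count and 19 did not, and for the single members 86 kept their direction and 12 reversed. The causes were not tested. The difference in the share of globin-rich barcodes was 0 at a 50% limit and 0.306 at 2%, and 0.0359 to 0.174 with single libraries left out. Against the other 3 gates the summed level was 4.54 (50% limit) and 3.28 (gate limits doubled) in the Cdh5 gate, 0.36 (50%) in the Hapln1 gate, and -3.31 (50%), -1.98 (2%) and -2.82 (doubled) in the Crabp1 gate. A Ho1 barcode at 16.4% globin entered the Cdh5 gate with limits doubled. At 50% the globin UMIs of the Cdh5 gate rose from 345 to 10675 in Wt2 and from 128 to 13779 in Ho1. Without the filter on low counts edgeR called 7 members in the Tnnt2 gate, 1 in the Cdh5 gate, 4 in the Hapln1 gate and 5 for an effect that differs between gates, beside 1.09%, 0.617%, 1.17% and 0.747% of all genes, and at the 10% limit it called 1 in the Tnnt2 gate (0.00677%). Leaving out single libraries gave 0 to 6, 0 to 2, 0 to 4 and 0 to 3 members in the same order, and 5 to 6 between the gates. The highest of these came without Ho2, beside 0.152%, 6.72%, 1.92% and 0.152% of all genes, and the fits between the gates called 69.2% to 76.8%.

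With single libraries left out, the log2 fold changes outside the globin-rich barcodes ran from -1.23 to 3.71 for Hba-x, -0.75 to 3.58 for Hba-a1, -0.38 to 3.8 for Hba-a2, -1.26 to 2.07 for Hbb-bh1, -0.056 to 1.09 for Hbb-y, -1.44 to 1.05 for Hbb-bt and -1.09 to 2.48 for Hbb-bs. Each lowest value is that without Ho1. In Wt1 a single barcode at 19.7% globin held 72.6% of the globin UMIs counted there, and at the 10% and 2% limits, which leave it out, the summed level of Ho2 lay above both Wt libraries. Hbb-bt was also -0.12 without Wt2, and Hbb-bs was -0.23 at the 10% limit and -0.28 at 2%. In single gates, none called, Hbb-y in the Cdh5 gate turned from -0.80 to 0.62 with gates that were not exclusive, 2.29 with gate limits doubled and 1.33 at the 50% limit. A Ho1 barcode at 16.4% globin, with 2167 UMIs of Hbb-y, entered this gate when it was not exclusive and when limits were doubled. At the 50% limit this gate went from 292 to 293 barcodes in Wt2 and from 163 to 164 in Ho1. Its globin UMIs went from 345 to 10675 in Wt2 and from 128 to 13779 in Ho1. With gates that were not exclusive, Hbb-y in the Crabp1 gate turned from 0.54 to -0.79, and in the Hapln1 gate Hbb-bs turned from -0.41 to 0.27 and Hbb-bt from -0.57 to 0.83 (0.48 with limits doubled). The Hapln1 gate of Ho1, when not exclusive, took in barcodes at 16.4% and 12.1% globin. They held 109 and 41 UMIs of Hbb-bt and 5 and 41 of Hbb-bs, and the exclusive gate of Ho1 held 36 and 38 UMIs of these genes. Hbb-y in the Crabp1 gate was -0.023 without Wt1.

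The replicate numbers showed no positive pairing, as the deviations of Wt1 and Ho1 correlated at -0.468 over 17175 genes. Those of Wt1 and Ho2 then correlate at 0.468 by construction, so the sign cannot tell whether the samples were paired. With the replicate block edgeR called 0 members in all sums and in each gate, and Hbb-bt was -0.090. It called 0.104% of all genes in the Hapln1 gate and 0% in all sums and in the Tnnt2, Cdh5 and Crabp1 gates. With crossed pairing, chosen after seeing the data, it called 5 members among 130 genes (0.88%) in the Tnnt2 gate, and 0 members in all sums and in the Cdh5, Hapln1 and Crabp1 gates, beside 0%, 0%, 0.0819% and 2.46% of all genes, and Hbb-bt was -0.036. With 2 libraries a genotype, exact tests cannot pass 0.05, and the 8 globin UMIs of the Crabp1 gate in Ho1 limit any value there.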
